A study of Mus musculus with 34 samples.

Results

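Loss of p107 and loss of p130 were set against each other in fetal liver that lacked Rb1 in both cases. The comparison took the 5 arrays titled Rb1;p107 DKO and the 9 arrays titled Rb1;p130 DKO, which made 14 of the 34 arrays of the series, and was read across all genes. Rb1;p107 DKO livers lacked Rb1 and p107 (gene Rbl1) and kept p130 (gene Rbl2). Rb1;p130 DKO livers lacked Rb1 and p130 and kept p107. The livers were whole and unfractionated, freshly isolated and untreated, and the labels place each at embryonic day 14.5, while the series' design text gives a range of 13.5 to 14.5 over all samples. Both groups shared the loss of Rb1 and the tissue, and differed by which of the remaining family members was missing. A difference in stage of up to that range between fetuses was not tested. The labels give neither the alleles nor the strain, and they do not say whether each array came from its own fetus, so the p-values speak to the spread among these samples, which may be technical. Other arrays used beside them were 2 of Rb1 KO, 6 of the triple knockout (Rb1;p107;p130 TKO), 6 of p107;p130 DKO, 1 of p107 KO, 3 of p130 KO and 2 of wild type.

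Rb1, p107 and p130 are the pocket proteins, which bind E2F transcription factors and hold back genes needed for DNA replication and mitosis. p130 is the member best known from resting and differentiating cells, where it joins the DREAM complex, while p107 gene transcription is itself driven by E2F and p107 is abundant in dividing cells. Fetal liver at this stage is the main organ of red cell formation, and most of its cells are erythroid precursors that divide a few times and then leave the cell cycle. DREAM reaches its targets through E2F sites and through the cell-cycle genes homology region (CHR) found in promoters of mitotic genes.

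The deposited values are Affymetrix MAS5 signals, analysed as log2(signal + 32) with the brightest probe set standing for each gene. A gene was called when its Benjamini-Hochberg adjusted p in limma was under 0.05. The arrays carried red cell and liver transcripts as labelled: the embryonic globin Hbb-y lay between 29102 and 50519 and the hepatocyte lipoprotein gene Apoa1 between 17194 and 35917 on the 14 arrays. Xist was present on 3 of the 5 Rb1;p107 DKO arrays and on 5 of the 9 Rb1;p130 DKO arrays, and the others carried Y-linked signal. Before the results, 1 imbalance needs stating. When all 34 arrays were clustered into 3 groups by how strongly different probe sets reported the same gene, without use of genotype, 4 of the 5 Rb1 and p107 double knockout arrays fell in group 2 and 1 (array 1) in group 1. No Rb1 and p130 double knockout array fell in group 2: arrays 1 to 5 were in group 1 and arrays 6 to 9 in group 3. What separates these array groups is unrecorded, and they come from the signals alone. Only Rb1 and p107 double knockout array 1 shared an array group with Rb1 and p130 double knockout arrays, so genotype and array group cannot be told apart for most of the difference. The main results are therefore given also with array group as a term in the fit (the blocked value), and within array group 1, where 1 array stands against 5.

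The deleted genes were read first, and where 3 values are given for the 9 Rb1;p130 DKO arrays they are the lowest, the median and the highest. Rbl1 gave 100.3, 53.4, 69.5, 66.6 and 57.8 on the 5 Rb1;p107 DKO arrays, against a lowest value of 1306, a median of 2414 and a highest of 2713 on the Rb1;p130 DKO arrays. The groups lay far apart (log2 difference -4.34 ± 0.19 SE, limma adjusted p = 1.26e-17, blocked -4.23). Rbl2 gave 398.1, 278.6, 473.9, 422.7 and 246.2 on the Rb1 and p107 double knockout arrays, against 151.0, 200.3 and 264.0 as the lowest, median and highest on the Rb1 and p130 double knockout arrays. The Rbl2 ranges overlapped, since Rb1 and p107 double knockout array 5 lay inside the range of the Rb1 and p130 double knockout. The Rbl2 difference did not pass the threshold (0.71 ± 0.18, adjusted p = 0.0600) and passed it with the array group term (1.06 ± 0.19, adjusted p = 0.0165). Rb1 gave 860.4, 860.7, 883.4, 1125 and 957.6 on the Rb1 and p107 double knockout arrays and 756.0, 1391 and 1746 as the lowest, median and highest on the Rb1 and p130 double knockout arrays, with overlap (-0.52 ± 0.17, adjusted p = 0.103). All 14 arrays thus read Rbl1 as labelled. A second Rbl1 probe set averaged 36.6 ± 18.8 (SD, n = 5) in Rb1 and p107 double knockout and 376.7 ± 162.1 (n = 9) in Rb1 and p130 double knockout, and a second Rbl2 probe set 196.8 ± 41.8 in Rb1 and p107 double knockout and 106.7 ± 42.1 in Rb1 and p130 double knockout.

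The p107 gene is known as an E2F target, and its promoter is printed here because Rbl1 had the widest gap between the groups. The sequence is the RefSeq promoter (GRCm38.p6, chr2:157204485-157204784, minus strand, 250 bases before to 50 after the start), written 5′ to 3′ with the E2F letters in capitals, which begin at position -18 from the start site.
Rbl1: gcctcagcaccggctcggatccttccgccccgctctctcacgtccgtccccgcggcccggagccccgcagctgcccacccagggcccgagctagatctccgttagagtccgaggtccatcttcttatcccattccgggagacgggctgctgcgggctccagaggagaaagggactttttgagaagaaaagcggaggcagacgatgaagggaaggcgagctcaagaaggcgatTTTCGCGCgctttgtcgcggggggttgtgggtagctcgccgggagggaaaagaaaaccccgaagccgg
Rbl1 averaged 2078 ± 576.9 (SD, n = 9) in Rb1;p130 DKO livers and 1382 ± 278.0 (n = 2) in Rb1 KO livers. That difference (0.54 ± 0.27) did not pass the threshold (adjusted p = 1). E2F letters were taken as TTTCCCGC, TTTCGCGC, TTTGGCGC or TTTGCCGC on either strand, and 4.66% of the 10283 tested genes with a promoter in the table held at least 1 of them.

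Across all genes, 34 of 12723 were called (0.267%), 11 of them higher in Rb1;p107 DKO livers (0.0865%) and 23 lower (0.181%). At an unadjusted p under 0.05 there were 2333 genes, and with array group as a term 604, of which 302 were higher and 302 lower. The median difference over all genes was -0.045 and 43.4% of genes lay above 0. Called genes were mostly moderate in size, and 6 of the 34 differed at least 2-fold. For 18 of the 34 the arrays of the groups did not overlap, 9 above and 9 below, while 0.857% of all tested genes had no overlap. With array group as a term 4 genes were called (0.0314%), of which Rbl1, Arl2bp and Serinc3 were among the 34 and Rbl2 was added. Over the 34 called genes the median blocked value was 0.56 of the value without the term, at a median ratio of standard errors of 1. The count also hung on 1 array: without Rb1 and p107 double knockout array 1, which sits in array group 1, 813 genes were called, and without any of arrays 2 to 5 it fell to between 6 and 11. Without array 8 of the Rb1;p130 DKO 101 were called, without arrays 8 and 9 together 261, and without array 2 or array 3 of that group 20 each. 6 genes stayed called whichever of the 14 arrays was left out, namely Rbl1, Arl2bp, Serinc3, Stk4, Wdr91 and 2600006K01Rik. In whole liver, fewer cells of a type and less RNA per cell cannot be told apart for genes other than the deleted Rbl1.

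**Figure D1:**
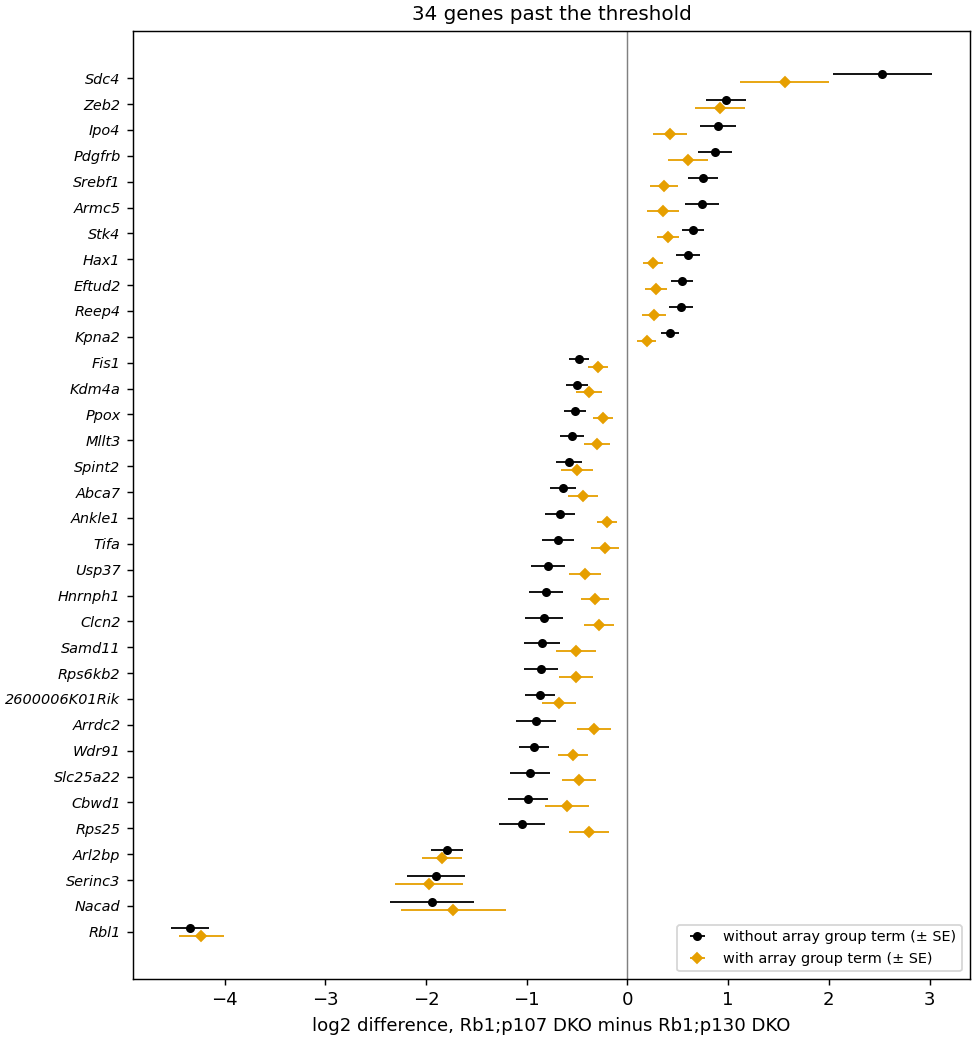
Log2 difference, Rb1;p107 DKO (5 arrays) minus Rb1;p130 DKO (9 arrays), of the 34 called genes, without (black circles) and with (orange diamonds) array group as a term. Bars are standard errors of the fit, which took in all 34 arrays of the series. Rbl1, Nacad, Serinc3, Arl2bp and Zeb2 keep nearly their full size with the term, while most others come closer to 0.

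Arl2bp, which encodes a protein that binds the small GTPase ARL2, had the firmest difference after Rbl1. It gave 356.3, 672.3, 330.2, 342.7 and 838.2 on the Rb1;p107 DKO arrays, against 1325, 1762 and 2197 as the lowest, median and highest on the Rb1;p130 DKO arrays. The groups did not overlap and the drop held within array group 1 (log2 difference -1.79 ± 0.16, adjusted p = 1.25e-08, blocked -1.84, within array group 1 -2.07). The second Arl2bp probe set gave -1.64. Arl2bp lies 3.60 Mb from Rbl2 on chromosome 8, on the side of higher coordinates. On arrays outside the comparison it read 222.3 on the p107 KO array and between 958.7 and 1770 on the 12 arrays that lacked both p107 and p130. The 3 p130 KO arrays gave 1279 to 1683, and the 4 arrays with both genes (wild type and Rb1 KO) 902.7 to 1286. Low Arl2bp was thus found on the 6 arrays that lacked p107 and carried p130, and not on arrays that lacked both. Between p107;p130 DKO and p130 KO the log2 difference was 0.01 (exact two-sided permutation p = 0.905, 6 against 3 arrays).

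Serinc3, which encodes a membrane protein of the serine incorporator family, was lower where p107 was missing. It gave 3746, 5610, 5110, 4943 and 4725 on the Rb1;p107 DKO arrays, against 4735, 20772 and 24249 as the lowest, median and highest on the Rb1;p130 DKO arrays. The ranges touched only through Rb1 and p130 double knockout array 3 at 4735, while the other 8 arrays of that genotype lay at or above 18563. The difference was -1.90 ± 0.29 (adjusted p = 7.69e-04, blocked -1.97, within array group 1 -2.03), and -2.14 without array 3. All 6 Serinc3 probe sets had the same sign, between -1.90 and -4.00. On the probe set with the widest gap, the Rb1 and p107 double knockout arrays gave 111.6, 107.4, 155.3, 114.1 and 93.9, against 133.0 on array 3 and 2285 to 4857 on the other 8 Rb1 and p130 double knockout arrays. Serinc3 therefore read on array 3 as in livers without p107, although Rbl1 on that array was 1739. The opposite case was array 1 of the triple knockout, which gave 17091 for Serinc3, while the median of the 12 arrays without p107 and p130 was 4254.

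Serinc3 lies 6.48 Mb from Rbl1 on chromosome 2, and 3 of the 204 genes tested within 10 Mb of Rbl1 were called (1.47%, against 0.267% of all genes). The others were Stk4, 6.93 Mb away, and Sdc4, 7.28 Mb away, all on the side of higher coordinates. Within 10 Mb of Rbl2 1 of 116 genes was called (0.862%), and within 10 Mb of Rb1, which both groups lack, 1 of 89 (1.12%), the gene Reep4. Neighbouring DNA that travels with a targeted allele, and an effect of the missing protein, were not tested as causes. Serinc3 did not follow p107 status on array 3 of the Rb1;p130 DKO (4735) or array 1 of the triple knockout (17091). Serinc3 was also tested where the comparison's own arrays play no part: in p107;p130 DKO against p130 KO it differed by -2.25 (exact two-sided permutation p = 0.0119, the smallest that 6 against 3 arrays allow, adjusted p = 0.0298 over 5 genes). Of those arrays 2 of the 6 p107;p130 DKO and 0 of the 3 p130 KO were in array group 2, and 1 of the 6 and 3 of the 3 were Xist-positive, which the permutation does not take into account. Without array group 2 the Serinc3 difference was -2.38 (exact p = 0.0286, the smallest that 4 against 3 arrays allow, adjusted p = 0.0715), and between Xist-positive arrays, 1 against 3, it was -2.30. The p107 KO array gave 4032 and wild type and Rb1 KO arrays 13918 to 21642. Pkig, a protein kinase A inhibitor gene 6.51 Mb from Rbl1, differed by -0.89 ± 0.23 and did not pass the threshold (adjusted p = 0.0622).

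Stk4, the Hippo pathway kinase also called Mst1, was higher in Rb1;p107 DKO livers. It gave 3880, 4889, 4680, 4444 and 4799 on the Rb1 and p107 double knockout arrays, against 2434, 2935 and 3367 as the lowest, median and highest on the Rb1;p130 DKO arrays, with no overlap. Its difference was 0.65 ± 0.11 (adjusted p = 0.00429), which the array group term reduced to 0.40 (adjusted p = 0.611). Its other probe sets differed less, by 0.27 (mean signal 1719) and 0.04 (mean signal 133.4). On the brighter of these the groups overlapped, at 1684 to 2236 in Rb1 and p107 double knockout and 1173 to 1864 in Rb1 and p130 double knockout. Sdc4, a cell-surface heparan sulfate proteoglycan gene, gave 1427, 3390, 3262, 2539 and 2259 on the Rb1 and p107 double knockout arrays, against 122.7, 236.8 and 1402 on the Rb1 and p130 double knockout arrays. The groups were separated, but narrowly, and Sdc4 followed the array groups in part. On Rb1 and p130 double knockout arrays it was 965.3 to 1402 on 4 of the 5 arrays of group 1 and 122.7 to 236.8 on those of group 3. The remaining array of group 1 lay at or below the median of 236.8. Its difference was 2.53 ± 0.49 (adjusted p = 0.0185), blocked 1.56 (adjusted p = 0.612), and its dimmer probe set went the other way (-1.03). In p107;p130 DKO against p130 KO, Stk4 differed by 0.34 (exact permutation p = 0.0714, adjusted p = 0.0893). Sdc4 gave 1148 to 2926 on the p107;p130 DKO arrays and 179.4 to 1791 on the p130 KO arrays (exact permutation p = 0.0595, adjusted p = 0.0893).

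**Figure D2:**
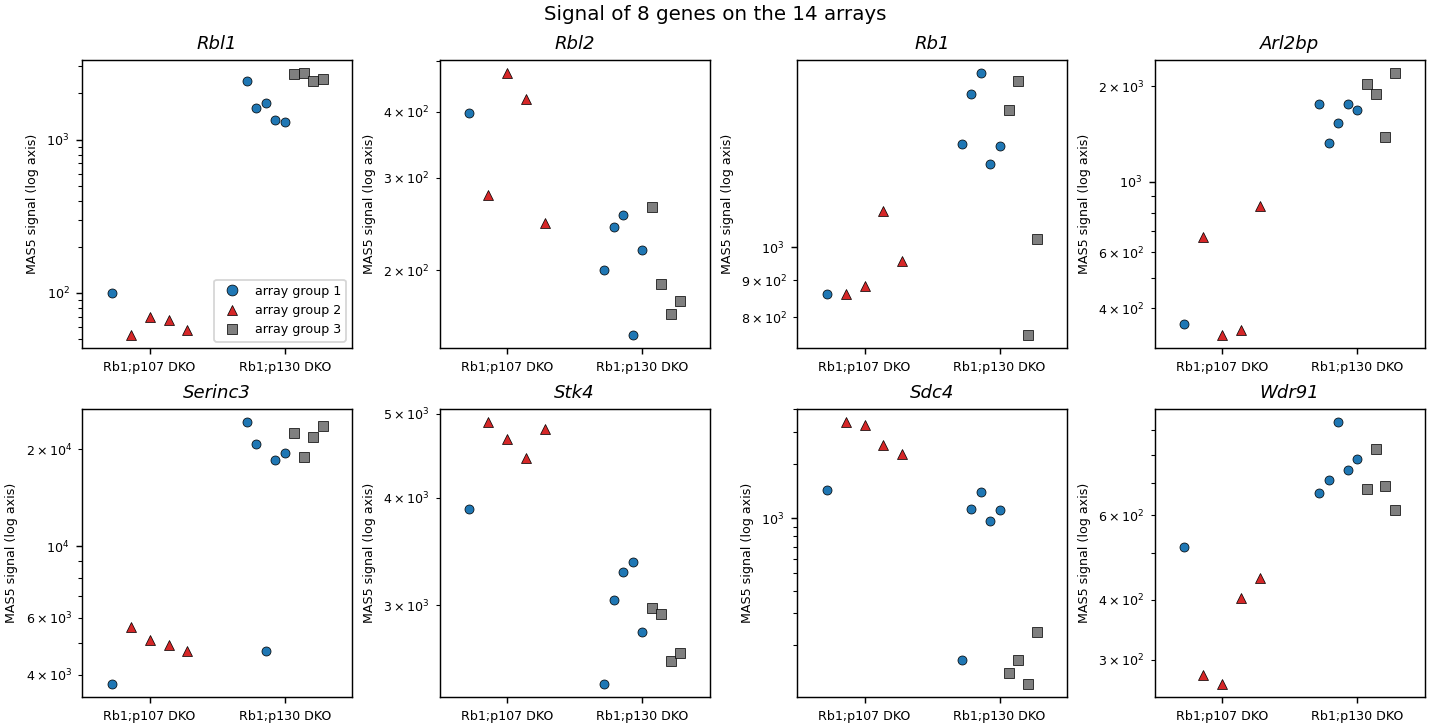
MAS5 signal (log axis) of 8 genes on the 5 Rb1;p107 DKO and 9 Rb1;p130 DKO arrays, with markers for array group. Rbl1, Arl2bp, Stk4, Sdc4 and Wdr91 do not overlap between the groups, and Serinc3 does so only through array 3 of the Rb1;p130 DKO at 4735.

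**Figure D3:**
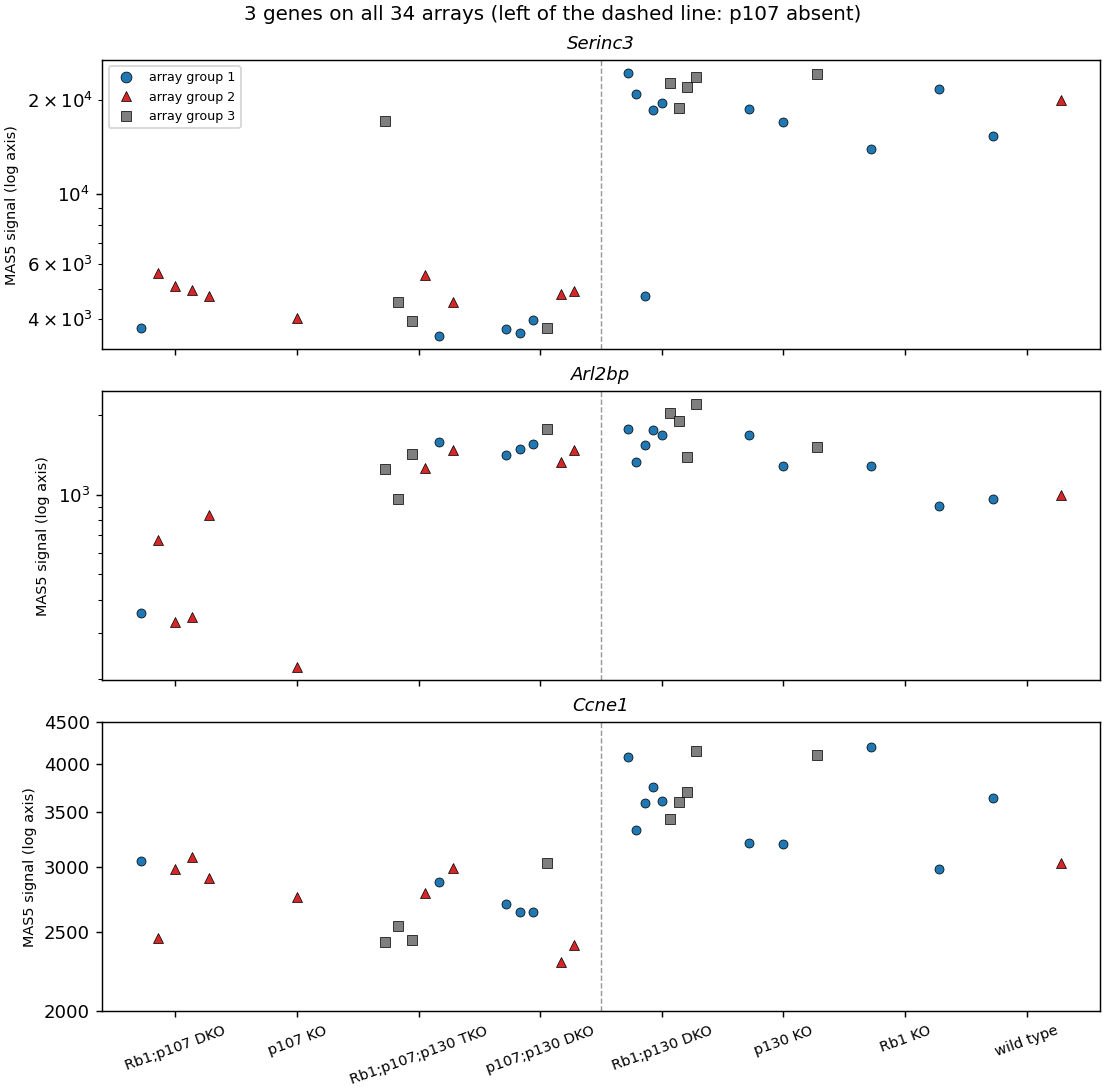
MAS5 signal (log axis) of Serinc3, Arl2bp and Ccne1 on all 34 arrays by genotype, p107 absent left of the dashed line and p107 present right of it. Arl2bp is low only in the 2 genotypes that lack p107 and carry p130, Serinc3 is low wherever p107 is absent apart from array 1 of the triple knockout (17091) and also on array 3 of the Rb1;p130 DKO (4735), where p107 is present, and Ccne1 runs lower on the left with overlap.

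Further genes rose in Rb1;p107 DKO livers. Zeb2, a zinc-finger repressor active in blood and mesenchymal cells, gave 1009, 597.6, 639.5, 598.7 and 688.2 on the Rb1 and p107 double knockout arrays, against 167.7, 354.8 and 473.3 as the lowest, median and highest on the Rb1;p130 DKO arrays (0.98 ± 0.20, adjusted p = 0.0198, blocked 0.92). Its brightest probe set was separated between the groups, but 2 of its other probe sets had the opposite sign (-0.34 and -0.42). Pdgfrb, the platelet-derived growth factor receptor of stellate cells and pericytes, gave 684.4 to 786.6 in Rb1 and p107 double knockout and 258.4 to 667.3 in Rb1 and p130 double knockout (0.87 ± 0.17, adjusted p = 0.0185). Srebf1, the transcription factor that drives fatty acid synthesis, gave 2420 to 3271 in Rb1 and p107 double knockout and 1214 to 2140 in Rb1 and p130 double knockout (0.75 ± 0.15, adjusted p = 0.0185). Both were without overlap, and the array group term brought them to 0.60 and 0.36. The nuclear import genes Ipo4 (0.90 ± 0.18) and Kpna2 (0.42 ± 0.09), the spliceosomal GTPase gene Eftud2 (0.54 ± 0.11), Hax1 (0.60 ± 0.12), Armc5 (0.74 ± 0.17) and Reep4 (0.53 ± 0.12), which clears endoplasmic reticulum from mitotic chromosomes, also rose. Other probe sets of mean signal 100 or more were lower or level for Ipo4 (-0.29), Hax1 (-0.15) and 1 of the 2 of Eftud2 (0.00). With the array group term none of these 9 genes passed the threshold.

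Genes that fell covered other functions. Nacad gave 556.6, 129.9, 176.1, 686.0 and 96.5 on the Rb1;p107 DKO arrays, against 629.9, 1160 and 1596 as the lowest, median and highest on the Rb1;p130 DKO arrays, with overlap (-1.94 ± 0.42, adjusted p = 0.0286, blocked -1.73). Wdr91, a factor of endosome maturation, gave 515.0, 279.3, 267.6, 404.5 and 444.0 on the Rb1 and p107 double knockout arrays. The lowest, median and highest on the Rb1 and p130 double knockout arrays were 613.7, 710.4 and 935.6. The Wdr91 groups did not overlap (-0.93 ± 0.15, adjusted p = 0.00302, blocked -0.54). Its other probe sets gave -0.86 (mean signal 180.0) and -0.02 (mean signal 124.0). 2600006K01Rik gave 235.3 to 342.0 in Rb1 and p107 double knockout and 340.4 to 641.3 in Rb1 and p130 double knockout (-0.87 ± 0.15, adjusted p = 0.00429, blocked -0.68). The ranges of that uncharacterised gene met only through Rb1 and p130 double knockout array 9. The ribosomal protein gene Rps25 (-1.05 ± 0.23), Cbwd1 (-0.99 ± 0.20), the mitochondrial glutamate carrier gene Slc25a22 (-0.97 ± 0.20), Arrdc2 (-0.91 ± 0.20), the S6 kinase gene Rps6kb2 (-0.86 ± 0.17), Samd11 (-0.85 ± 0.18) and the chloride channel gene Clcn2 (-0.83 ± 0.19) fell as well. Within array group 1 Cbwd1 was level (0.04), and Rps25, Arrdc2 and Clcn2 came to -0.25, -0.35 and -0.30. Smaller falls were called for the splicing factor gene Hnrnph1 (-0.81), the deubiquitinase gene Usp37 (-0.79, and 0.47 on its other probe set), Tifa (-0.69), Ankle1 (-0.67), the lipid transporter gene Abca7 (-0.64), the protease inhibitor gene Spint2 (-0.58), Mllt3 (-0.55, and -0.22 and 0.02 on its other probe sets), a regulator of blood stem cells, Ppox (-0.52), the histone demethylase gene Kdm4a (-0.50) and the mitochondrial fission gene Fis1 (-0.48). With the array group term none of these lower genes passed the threshold.

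The called genes were set beside values that the comparison did not use. Between the p107 KO array and the mean of the 3 p130 KO arrays, where Rb1 is present, the sign was the same for 34 of 34 called genes and for 65% of all tested genes. That comparison has 1 array on one side and no test, and the p107 KO array belongs to array group 2 like most of the Rb1;p107 DKO, so it carries the same imbalance. On the 20 arrays of the other genotypes, the difference between array groups, mixed in the proportions of the compared groups, had the same sign as the call for 31 of the 34 (76% of all tested genes), and 17 of the 34 were themselves called between array groups 2 and 1 on those 20 arrays, as were 3052 of all tested genes (24%). Those 17 included Stk4 (0.41, adjusted p = 0.0082) and Wdr91 (-0.46, adjusted p = 0.0151), which had stayed called whichever array was left out. The others that had stayed called were not among the 17. These were Arl2bp (-0.04, adjusted p = 0.854), Rbl1 (0.14, adjusted p = 0.635), Serinc3 (0.35, adjusted p = 0.371) and 2600006K01Rik (-0.39, adjusted p = 0.0772).

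Each combination was also set against Rb1 loss alone, which has 2 arrays, both in array group 1. These comparisons share the double knockout arrays with the one above and the Rb1 KO arrays with each other. Rb1;p107 DKO differed from Rb1 KO in 1 called gene (0.00786%), Rbl1 (-3.80 ± 0.29, adjusted p = 1.07e-10), with 1500 genes at an unadjusted p under 0.05. Rb1;p130 DKO differed from Rb1 KO in 0 called genes (0%) by limma, with 291 at an unadjusted p under 0.05. With the array group term these unadjusted counts came to 417 for Rb1;p107 DKO and 247 for Rb1;p130 DKO. The mean of Rb1 KO lay closer to the Rb1 and p130 double knockout mean than to the Rb1 and p107 double knockout mean for 32 of the 34 called genes, which were chosen for the gap between those means, and for 66.6% of all tested genes. Arl2bp gave -1.14 ± 0.25 in Rb1 and p107 double knockout and 0.65 ± 0.23 in Rb1 and p130 double knockout against Rb1 KO, where its mean was 1094, so Rb1 KO stood between them. Serinc3 gave -1.85 ± 0.43 in Rb1 and p107 double knockout and 0.04 ± 0.40 in Rb1 and p130 double knockout. None of these 4 values passed the threshold.

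Cell-cycle genes were described as lists, which were written by hand with earlier results of these data known. The counts of called members in these and the later lists stand beside 0.267% called over all tested genes. Of 41 S-phase and E2F target genes tested, 0 were called, 33 lay above 0, and 11 were higher and 2 lower at an unadjusted p under 0.05, where all genes had 6.56% higher and 11.8% lower. Their median difference was 0.18, with the array group term 0.03 and within array group 1 -0.04, beside -0.045 for all genes. Mcm5, a subunit of the replicative helicase, gave 17222, 22748, 24038, 22345 and 22126 on the Rb1;p107 DKO arrays, against 14184, 17450 and 18978 in the Rb1;p130 DKO. Array 1 of the Rb1 and p107 double knockout lay within the Rb1 and p130 double knockout range and the 4 arrays of group 2 lay above it (0.33 ± 0.10, adjusted p = 0.0971, blocked 0.04). Ccne1, which encodes cyclin E1, the partner of CDK2 at the start of S phase, ran the other way, with 3050, 2452, 2980, 3085 and 2903 on the Rb1 and p107 double knockout arrays, against 3329, 3605 and 4150 on the Rb1 and p130 double knockout arrays. The Ccne1 groups did not overlap, and its difference of -0.35 ± 0.09 just missed the threshold (adjusted p = 0.0623, blocked -0.29, within array group 1 -0.26). Of 32 G2/M genes 0 were called and 24 lay above 0, with a median of 0.15, blocked -0.05 and within array group 1 -0.14. Kif20a, a mitotic kinesin gene, gave 1991 to 3016 in Rb1 and p107 double knockout and 1058 to 2282 in Rb1 and p130 double knockout (0.52 ± 0.14, adjusted p = 0.0629). Its blocked value was 0.35 and its value within array group 1 was 0.00. Of the 6 histone genes tested each lay above 0, with a median of 0.33 and a blocked median of -0.02.

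**Figure D4:**
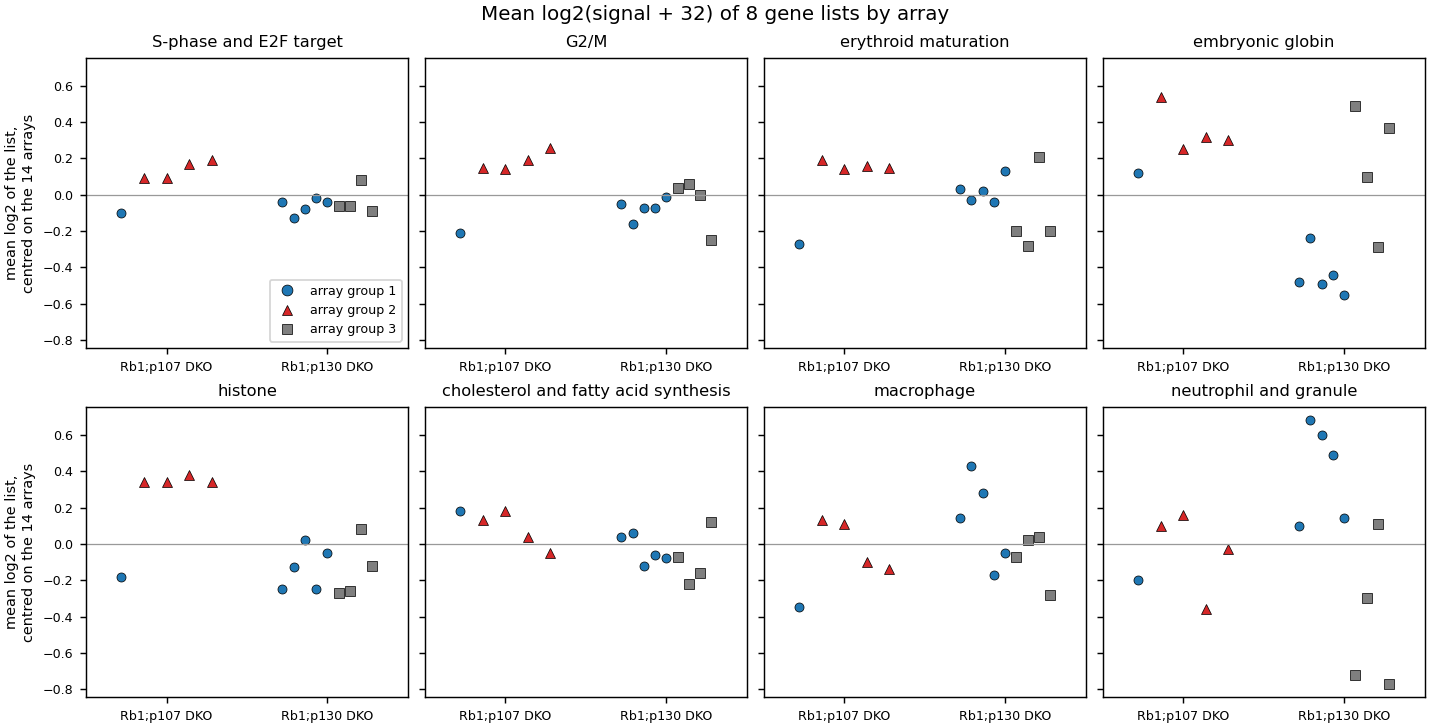
Mean log2(signal + 32) of 8 gene lists on each of the 14 arrays, centred on their mean over the 14, with markers for array group. For the S-phase, G2/M, erythroid and histone lists array 1 of the Rb1;p107 DKO is the lowest of its genotype (-0.10, -0.21, -0.27 and -0.18). The 4 Rb1;p107 DKO arrays of array group 2 lie above every Rb1;p130 DKO array for the S-phase, G2/M and histone lists. For the erythroid list array 8 of the Rb1;p130 DKO (0.21) lies above them.

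Because the promoter of a pocket protein target often holds a CHR or E2F element, the called genes were searched for both. 28 of the 34 had a RefSeq promoter. The CHR letters TTTGAA, read on either strand, were in 3 of the 7 higher genes with a promoter (Zeb2, Ipo4 and Kpna2) and 2 of the 21 lower ones (Ankle1 and Hnrnph1), against 14.5% of tested genes. E2F letters were in 1 of the 7 higher genes (Zeb2) and 1 of the 21 lower ones (Rbl1 itself). Kpna2, an importin, and Ankle1, an endonuclease gene of blood-forming tissue, are printed as a higher and a lower gene with the CHR letters near the start, at positions -35 and -10, with the letters in capitals (GRCm38.p6, Kpna2 chr11:106999476-106999775, minus strand, read there as TTCAAA, and Ankle1 chr8:71405762-71406061, plus strand).
Kpna2: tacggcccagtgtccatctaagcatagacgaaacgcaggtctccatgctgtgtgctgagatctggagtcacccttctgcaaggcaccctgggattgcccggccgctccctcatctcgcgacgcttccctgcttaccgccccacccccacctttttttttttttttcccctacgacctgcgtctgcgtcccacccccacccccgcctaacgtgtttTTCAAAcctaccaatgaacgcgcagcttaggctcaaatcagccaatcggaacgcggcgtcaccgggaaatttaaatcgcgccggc
Ankle1: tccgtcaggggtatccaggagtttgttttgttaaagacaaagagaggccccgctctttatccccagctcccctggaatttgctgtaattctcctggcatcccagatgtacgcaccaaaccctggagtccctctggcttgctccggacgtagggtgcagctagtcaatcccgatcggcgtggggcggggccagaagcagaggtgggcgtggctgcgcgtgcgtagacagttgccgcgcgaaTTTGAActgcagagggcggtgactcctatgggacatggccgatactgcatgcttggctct
Kpna2 gave 14053, 15445, 16694, 17115 and 17313 on the Rb1;p107 DKO arrays, against 10583, 11925 and 14232 in the Rb1;p130 DKO, with array 1 inside that range. Ankle1 gave 655.9 to 966.4 in Rb1 and p107 double knockout and 992.8 to 1423 in Rb1 and p130 double knockout, with no overlap (-0.67 ± 0.15, adjusted p = 0.0345, blocked -0.20). A match of letters is a description of the window and not a binding site.

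Red cell genes showed small differences, and the sign of the maturation list turned with the array group term. Of 38 erythroid maturation genes, 30 lay above 0 with a median of 0.17, where 43.4% of all genes lay above 0. With the array group term 5 lay above 0 with a median of -0.12, where 52.7% of all genes did. Within array group 1 the median of the list was -0.25. The called member was Ppox, protoporphyrinogen oxidase of heme synthesis, which gave 4687, 3954, 3544, 3383 and 3364 on the Rb1;p107 DKO arrays against 4343, 5187 and 6195 in the Rb1;p130 DKO. Array 1 lay inside the Rb1 and p130 double knockout range (-0.52 ± 0.11, adjusted p = 0.0352, blocked -0.24). Summed over the list, the signals ran from 466536 to 666203 in Rb1 and p107 double knockout arrays and from 436710 to 650185 in Rb1 and p130 double knockout arrays, so the ranges overlapped widely. The embryonic alpha-like globin Hba-x gave 21008, 29008, 21634, 22021 and 19876 on the Rb1 and p107 double knockout arrays, against 8648, 9577 and 26480 on the Rb1 and p130 double knockout arrays. All 5 Rb1 and p130 double knockout arrays of group 1 lay at or below 10029 and 3 of the 4 of group 3 at 17719 or more (0.88 ± 0.25, adjusted p = 0.0736, blocked 0.80, within array group 1 1.20). Hbb-y differed by 0.30 ± 0.12 (adjusted p = 0.178, blocked 0.00).

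Metabolic lists were described in the same way. Of 18 cholesterol and fatty acid synthesis genes, 12 lay above 0 with a median of 0.11, and Srebf1 was the called one. With the array group term 18 of 18 lay above 0 (52.7% of all genes did) with a median of 0.21, and within array group 1 the median was 0.25. Fdft1, the squalene synthase gene, gave 3773, 5690, 5810, 5934 and 5263 on the Rb1;p107 DKO arrays, against 2690, 3360 and 5089 in the Rb1;p130 DKO (0.61 ± 0.15, adjusted p = 0.0600, blocked 0.35). Fdft1 overlapped through array 1. The Atf4 targets of the amino acid response had a median of 0.19 over 15 genes, blocked 0.16, with 0 called. Their summed signal was 49752 to 55476 in Rb1 and p107 double knockout arrays and 40439 to 48033 in Rb1 and p130 double knockout arrays, without overlap, and the sum is led by its brightest genes. The mean of the list on the log2 scale, centred over the 14 arrays, did overlap (-0.01 to 0.18 in Rb1 and p107 double knockout, -0.33 to 0.13 in Rb1 and p130 double knockout), and within array group 1 the median was 0.06. Asns, asparagine synthetase, differed by 0.33 (adjusted p = 0.156). The 27 respiratory chain genes had a median of 0.06, with 18 above 0 and a blocked median of -0.02. Uqcrq (-0.45 ± 0.12, adjusted p = 0.0683) and Cox6c (-0.30 ± 0.08, adjusted p = 0.0693) lay below 0. Their blocked values were -0.17 and -0.15, and within array group 1 they came to -0.09 and -0.06. The hypoxia-response genes had a median of 0.11, with 0 of 21 called.

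Markers of other liver cells overlapped between the groups as lists. Of all tested genes 0.267% were called, so 0 called in a list of this length does not show that the groups were alike. Hepatocyte genes had a median of -0.05 (blocked -0.04, within array group 1 -0.38) with 0 of 29 called, and their summed signal ran from 214045 to 327958 in Rb1;p107 DKO arrays and from 218141 to 299399 in Rb1;p130 DKO arrays. Macrophage genes had a median of -0.07 (blocked -0.09, within array group 1 -0.40) with 0 of 22 called and sums of 20749 to 30239 in Rb1 and p107 double knockout arrays and 21919 to 35187 in Rb1 and p130 double knockout arrays. Within that list Hmox1, heme oxygenase of red-cell-clearing macrophages, gave 930.4, 453.3, 408.1, 551.8 and 437.3 on the Rb1 and p107 double knockout arrays, against 761.1, 1213 and 1416 on the Rb1 and p130 double knockout arrays. Array 1 lay inside the Rb1 and p130 double knockout range, and the difference (-1.05 ± 0.30, adjusted p = 0.0736) came to -0.02 with the array group term. Csf1r, the macrophage growth factor receptor gene, was 0.66 ± 0.19 (adjusted p = 0.0769, blocked 0.17). Neutrophil genes had a median of -0.12 (blocked -0.21 with 2 of 18 above 0, within array group 1 -0.60) with 0 of 18 called and sums of 60504 to 93758 in Rb1 and p107 double knockout arrays and 45970 to 117570 in Rb1 and p130 double knockout arrays. Stellate genes had a median of 0.02 (blocked 0.17 with 18 of 25 above 0, within array group 1 0.09). Pdgfrb was the 1 called of these 25. The megakaryocyte, stem cell, endothelial, lymphoid and mast cell lists had 0 called. Within array group 1 the mast cell median was -0.38 and the endothelial -0.23, against -0.001 for all tested genes. Of the lymphoid markers 9 had a median signal under 100, and 8 of the mast cell markers did, so those lists rest on few readable genes. The median was -0.04 for the p53 target genes (0 of 16 called), 0.03 for interferon-response genes (0 of 16) and -0.05 for immediate-early genes (0 of 22). With the array group term these medians came to 0.01, 0.08 and 0.10. Among the p53 targets Btg2 was at -0.84 ± 0.25 (adjusted p = 0.0789, blocked -0.34).

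**Figure D5:**
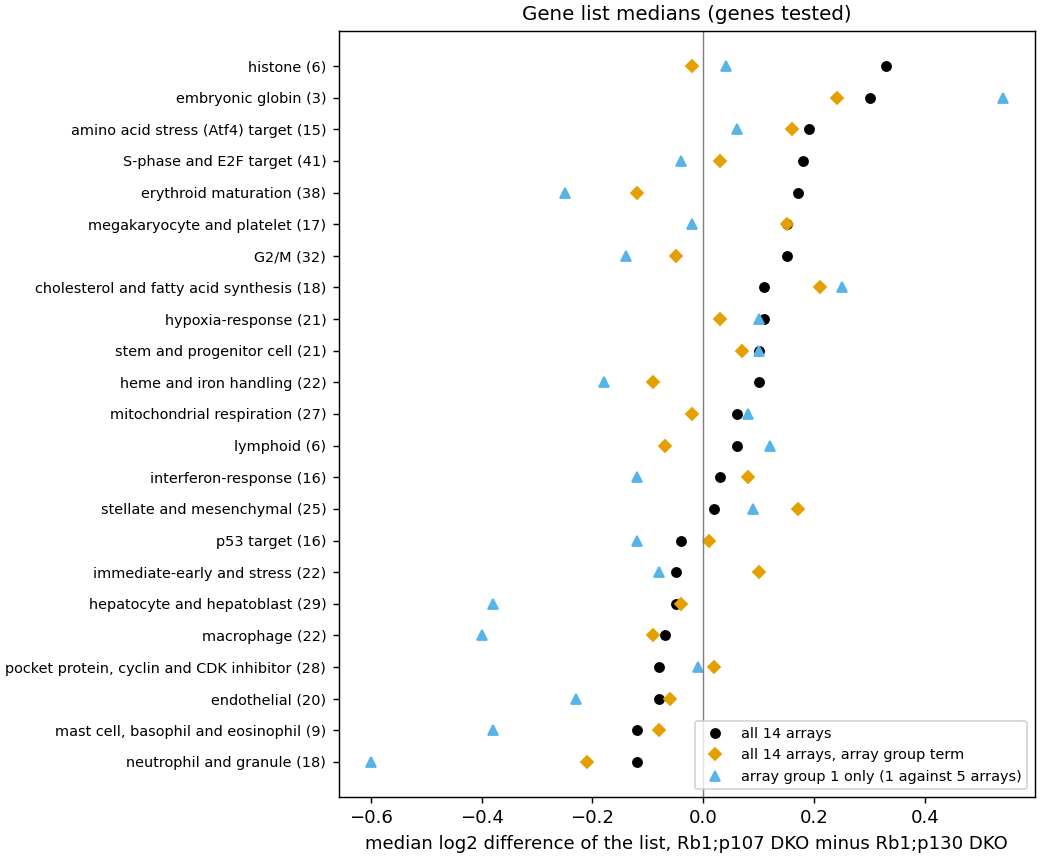
Median log2 difference, Rb1;p107 DKO minus Rb1;p130 DKO, of 23 gene lists over all 14 arrays (circles), with array group as a term (diamonds) and within array group 1, 1 array against 5 (triangles); the number of genes tested is in parentheses. The histone, S-phase, G2/M, erythroid and heme lists lie above 0 over all arrays and near or below 0 with the term, while the cholesterol and embryonic globin lists stay above 0.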

How the data were processed

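Total RNA was biotin-labelled and hybridised to 34 Affymetrix one-colour arrays, per the labels' protocols. Per the submitters' processing notes MAS5 and GCOS 1.4 were used, and the authors deposited an intensity, which is a linear signal, for each of 45037 probe sets. No detection calls and no scan dates were used here. Of these probe sets, 34945 were named by 1 RefSeq symbol (GRCm38.p6, through the platform annotation), 932 matched several genes and 9160 none. Arrays had trimmed means of 495.4 to 497.7 and were rescaled to 500. Median signals ran from 80.6 to 115.9. Values were taken as log2(signal + 32), and the brightest probe set stood for each of 18193 genes. The 12723 genes that reached a signal of 100 on 2 arrays were tested. limma 3.58.1 in R 4.3.3 fitted 1 mean per genotype over the 34 arrays (eBayes with trend), two-sided, with Benjamini-Hochberg adjustment. Promoters and figures used Python 3.11.15. The number of arrays limits the precision. Named genes were the pocket genes, up to 12 called rises and 12 falls of mean log2 signal 8 or more, called genes within 10 Mb of Rbl1 or Rbl2 and up to 2 members of each list by test statistic. Other genes named (Pkig, Asns and the remaining called genes, such as Usp37 and Mllt3) were chosen after their values were seen. The members, lists, tests and alternatives were chosen with earlier results of these data known. The same replicate numbers 1 to 5 in both groups gave correlations of -0.10 to 0.10 between same-numbered arrays, so they were not taken as pairs. The steps were tested on simulated data.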

Additional observations from a re-analysis of the deposited data

Results flagged for a closer look

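Single arrays stood apart from their own group, by the gap to the nearest array over the range of the group, in 14 of 130 gene and group pairs, where chance gives about 1 in 20. Of these, 9 were array 1 of the Rb1;p107 DKO, the member of that genotype in array group 1. On that array Zeb2 (1009), Rps25 (858.5) and Clcn2 (244.7) were high, while Mcm5 (17222), Hbb-y (36167), Cd48 (230.8), H2ax (14776), H1f2 (9646) and Fdft1 (3773) were low. Array 2 of the Rb1 and p107 double knockout was low for Ccne1 (2452) and high for Hba-x (29008). In the Rb1;p130 DKO, array 3 was low for Serinc3 (4735, against 18563 to 24249 on the others), array 6 for Armc5 (311.6) and array 9 for 2600006K01Rik (340.4). Array group moves with the values of array 1, and its part in them was not tested.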

How the results depend on the processing

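The 34 calls became 123 with a signal of 200 on 6 arrays, 52 with quantile normalization, 20 with the mean of all probe sets, 22 without the trend, 2129 with array weights, 224 with only the 2 groups and 6 with an added 2-fold threshold. They became 4 with the array group block, 4 with it and a sex term, 4 with array group as a random block (chosen after seeing the data), 261 without arrays 8 and 9 of the Rb1;p130 DKO, and 6 to 813 when 1 array was left out. The replicate block with only the 2 groups gave 1259 calls, 5 for Rb1;p107 DKO against Rb1 KO and 16 for Rb1 and p130 double knockout against Rb1 KO; the numbers mark no recorded pairing. Rb1 and p107 double knockout against Rb1 KO gave 2 calls without a filter, 2 with the mean of all probe sets, 3 with only the 2 groups and 1 to 3 when 1 array was left out, and Rb1 and p130 double knockout against Rb1 KO 0 to 2. The sign turned for Cbwd1 (0.04 within array group 1, a value chosen after seeing the data). Within array group 1 it also turned for 13 of the 40 named genes that were not called, each from above 0 to between -0.38 and -0.01, with Apoa1 (-0.38), Cd79b (-0.34), Bgn (-0.30), Hoxa9 (-0.25), Dnajb1 (-0.16), Cd48 (-0.15), H2ax (-0.14), Hdc (-0.13), Flt4 (-0.12), Csf1r (-0.07), Hbb-y (-0.05), H1f2 (-0.04) and Chac1 (-0.01). With the block, and with block and sex, it turned for Apoa1 (-0.10 and -0.07), Cd48 (-0.21 and -0.21), Cd79b (-0.14 and -0.15), Flt4 (-0.07 and -0.07) and H1f2 (-0.10 and -0.12), with both terms for Hdc (-0.00) and with the random block for Cd79b (-0.02). With the mean of all probe sets it turned for Nfib (-0.04), Hoxa9 (-0.10), Higd1a (-0.05) and Fdft1 (-0.03). Except for Cbwd1, which was called, these genes were not called. The cause was not tested. Probe sets disagreed in sign for 7 of 16 called genes with several of mean signal 100 or more (Eftud2, Hax1, Ipo4, Mllt3, Sdc4, Usp37 and Zeb2).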

Other observations

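Ccne1 was followed on arrays that the comparison did not use, after its values had been seen. It gave 2756 on the p107 KO array and 2298 to 3030 on the 12 arrays without p107 and p130, against 3198 to 4108 on the 3 p130 KO arrays. In p107;p130 DKO against p130 KO the log2 difference was -0.41, with lower values on 6 of 6 arrays (exact two-sided permutation p = 0.0119, the smallest that 6 against 3 arrays allow, adjusted p = 0.0298 over 5 genes). The permutation takes no account of array group 2, which held 2 of the 6 p107;p130 DKO and 0 of the 3 p130 KO arrays, or of sex, since 1 of the 6 and 3 of the 3 were Xist-positive. Without array group 2 the difference was -0.34 (exact p = 0.0286, the smallest that 4 against 3 arrays allow, adjusted p = 0.0715), and between Xist-positive arrays, 1 against 3, it was -0.39. These 2 alternatives were chosen after seeing the data. The 4 arrays of wild type and Rb1 KO gave 2981 to 4192 and so overlapped with the Rb1;p107 DKO range of 2452 to 3085. Cyclin E1 is an E2F target in general knowledge, and no cause was tested here.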
